A study of Homo sapiens with 48 samples.

Results

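The effect of SF3B1 depletion in cells without RAS activation was examined in IMR90 ER:RAS cells, an established line of human lung fibroblasts with an oncogenic RAS protein joined to the oestrogen receptor (ER:RAS). All libraries compared here come from cells with this fusion, which 4-hydroxytamoxifen (4OHT) switches on and the solvent DMSO leaves off. By sample title, 16 of the 48 libraries of the series were taken: 8 from DMSO-treated cells transfected with siRNAs against SF3B1 (siSF3B1-13 and siSF3B1-16) and 8 from DMSO-treated cells given non-targeting siRNAs (siNT1 and siNT2). Cells were kept in DMSO for 6 days, transfected, and held in medium with 0.5% FBS for another 2 days before RNA was purified. Each siRNA had 4 replicates according to the labels (the methods state 3), and since nothing says that these were separate cultures, p-values measure only the spread between these libraries. The corresponding 4OHT libraries, again 8 against 8 and with RAS active, serve below as a second comparison with no sample in common.

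SF3B1 is the largest subunit of SF3b, the part of the U2 snRNP that holds the branch point adenosine of an intron and so fixes which 3′ splice site will be used. When the branch point is not engaged, the spliceosome can join the exons on either side and leave the middle exon out, or leave the intron in the message. Genes for the splicing machinery itself, for cell division and for p53 signalling are among those whose response to SF3B1 loss has been followed in many cell types.

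The 16 libraries held between 34659429 and 52734636 counts over genes. The first principal component of log2 CPM over the genes tested carried 81.9% of the variance and separated knockdown from siNT, and the second, with 9.6%, separated siSF3B1-13 from siSF3B1-16. On the first component replicate 4 of each SF3B1 siRNA lay further from siNT than the other replicates, at 35.4 against 32.5 to 33.1 for siSF3B1-13 and at 24.8 against 21.8 to 22.4 for siSF3B1-16. Without the libraries numbered 4, 7316 genes, 739 genes at least 2-fold, 1987 exons and 550 introns were called in DMSO, against 7268, 758, 2055 and 584 with them. Fibroblast markers were abundant in every library, with a summed level of 11559 to 12596 cRPKM (the authors' RPKM corrected for mappability) in siNT and 10526 to 11263 in siSF3B1 for 10 genes. Of the markers of other cell types, CD3E was at 0 in all 16 libraries, and EPCAM, CDH1, SFTPC, CDH5, VWF, KDR, PTPRC, CD14, MYH11 and DES stayed under 1 cRPKM. The 3 endothelial markers found summed to 0.190 to 0.260 cRPKM in siNT and 0.0800 to 0.220 in siSF3B1. The 4 immune markers summed to 23.1 to 30 and 23.7 to 27.4 cRPKM, nearly all of it CD68, and the 6 epithelial markers, led by the keratin gene KRT18, summed to 35.6 to 44.5 and 35.9 to 52.2. The 3 smooth muscle markers, led by LMOD1, summed to 13.2 to 16.4 cRPKM in siNT and 8.49 to 10 in siSF3B1. The part of these levels in the results below was not tested.

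SF3B1 itself (ENSG00000115524, chr2:198253239-198299803 in GRCh37, minus strand) was examined first. Its level after TMM scaling was 311, 362 and 396 CPM in the lowest, median and highest siNT library, and 30.4, 33 and 35.2 CPM in siSF3B1. The groups did not overlap, and the log2 fold change was -3.45 (SE 0.08, edgeR adjusted p = 3.05e-34). Taken alone, siSF3B1-13 gave -3.50 and siSF3B1-16 gave -3.41. The single event of SF3B1 that could be tested was itself called changed.

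Of 9991 genes tested with edgeR, 3648 rose (36.5%) and 3620 fell (36.2%) at an adjusted p under 0.05, so 72.7% of all genes passed and a call alone says little about a gene. A second rule, which also required a change of at least 2-fold, left 167 genes that rose (1.67%) and 591 that fell (5.92%). The 8 and 8 libraries did not overlap for 5424 of the called genes, 54.3% of those tested. In 4944 genes the call also stood in the same direction with each SF3B1 siRNA alone, and the genes named next were the 10 with the largest rise and the 10 with the largest fall among these.

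The genes that rose most started from very low levels. GUCA1B, which encodes a guanylate cyclase activator of photoreceptors (chr6:42151022-42162694 in GRCh37), had 0.335, 0.576 and 0.746 CPM in siNT against 7.54, 9.89 and 13.0 CPM in siSF3B1. Its log2 fold change was 4.11 (SE 0.12, edgeR adjusted p = 7.41e-31). The gene listed as AC133561.1 rose by 3.20 (SE 0.14), OVGP1, which encodes an oviduct glycoprotein, by 3.04 (SE 0.11), and MTHFD2L, a mitochondrial enzyme of folate metabolism, by 2.81 (SE 0.11) on the log2 scale. Each of these 4 genes lay between 0.335 and 1.55 CPM in siNT and between 5.61 and 13.0 CPM in siSF3B1, and none carried a splicing event that could be tested. At their siNT level in all 48 libraries they would have missed the minimum of 10000 counts in total. The filter thus admits genes this low in siNT only if they are higher in other libraries, such as those of the knockdown.

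Not all of the 10 started so low. HSPA14, an HSP70-family chaperone that works on the ribosome, went from 9.37, 10.3 and 11 CPM to 33.5, 37.3 and 41.5 CPM, a log2 fold change of 1.87 (SE 0.05). DUS3L, a tRNA dihydrouridine synthase, went from 7.71, 8.85 and 9.24 CPM to 27.3, 32.5 and 38.2 CPM, also a change of 1.87 (SE 0.12). E2F7, a repressor of E2F target genes, went from 19.3, 22 and 25.2 CPM to 41, 73.7 and 128 CPM, a change of 1.89 (SE 0.21). The spread of E2F7 in the knockdown follows the siRNA, since siSF3B1-13 alone gave 2.45 and siSF3B1-16 alone 0.97. The same held for FZD8, a Wnt receptor, with 2.64 and 1.17, and for ANGPTL4, a secreted inhibitor of lipoprotein lipase, with 2.42 and 0.93. By contrast, HSPA14 (1.79 and 1.94) and OVGP1 (3.14 and 2.94) moved alike. FZD8 had only 1.43 to 2.11 CPM in siNT here, while libraries outside this comparison were far higher, at 68.1 to 82.2 CPM in 4OHT siNT. CYP26B1, an enzyme that breaks down retinoic acid, completes the 10 with a log2 fold change of 2.04 (SE 0.24), at no more than 1.15 CPM in any of the 16 libraries. It passed the count filter only through libraries outside this comparison, with 61.1 to 74.4 CPM in the 4OHT siNT libraries.

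Next to SF3B1, the deepest falls were in TOP2A and KIF20A, genes of dividing cells, and CIT was also among the 10. TOP2A, the topoisomerase that untangles replicated chromosomes, had 40.8, 46.9 and 59.8 CPM in siNT and 2.80, 5.66 and 8.09 CPM in siSF3B1, a log2 fold change of -3.14 (SE 0.18, edgeR adjusted p = 2.06e-20). KIF20A, a kinesin of the central spindle, went from 16.8, 18.5 and 22 CPM to 0.949, 2.37 and 4.18 CPM (-2.94, SE 0.21), and CIT, a kinase of the midbody, from 10.4, 11.5 and 15 CPM to 1.18, 1.78 and 2.87 CPM (-2.62, SE 0.16). In bulk RNA, fewer cells in a phase of the cycle and less RNA of these genes per cell cannot be told apart.

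The other genes in this group have diverse roles. ZC3H7A, a zinc finger protein linked to miRNA processing, was the most abundant, with 104, 108 and 118 CPM in siNT and 16.2, 19.6 and 20.9 CPM in siSF3B1 (log2 fold change -2.49, SE 0.07). AASS, the first enzyme of lysine breakdown, changed by -2.86 (SE 0.13), and FABP3, a fatty acid carrier, by -2.77 (SE 0.15). OAS3, an interferon-induced sensor of double-stranded RNA, changed by -2.72 (SE 0.17), TRANK1 by -2.59 (SE 0.11) and the oxidoreductase PYROXD2 by -2.39 (SE 0.09). None of these 9 genes carried a splicing event that passed the filters for testing, which ask for coverage and for a minimum spread between libraries. Whether the counting used strand is not given in the sources used here, and HSPA14, KIF20A and PYROXD2 overlap other protein-coding genes in the GRCh37 annotation, so reads of the overlapping stretch cannot be assigned with certainty.

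**Figure D1:**
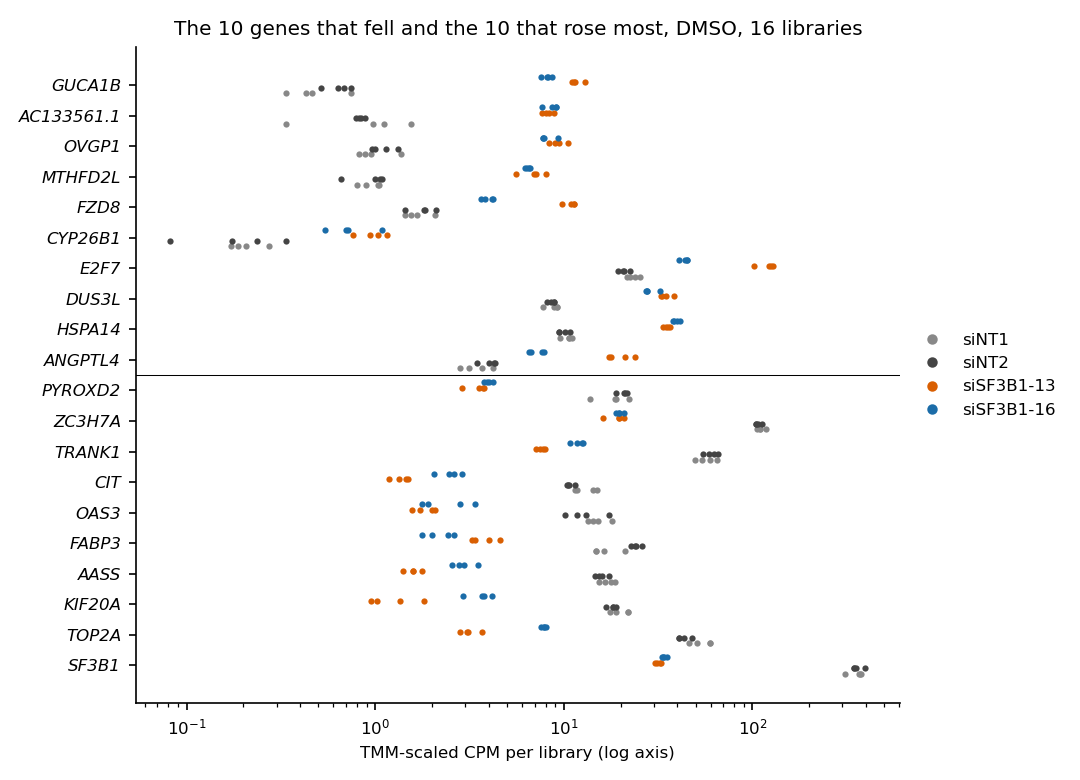
TMM-scaled CPM (log axis) of the 10 genes that fell most and the 10 that rose most in each of the 16 DMSO libraries, 1 point per library, coloured by siRNA. For every gene shown the knockdown libraries lie apart from the siNT libraries, and for E2F7, FZD8, ANGPTL4, TOP2A and KIF20A the libraries of siSF3B1-13 lie further from siNT than those of siSF3B1-16.

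Pathways were then described with 30 gene lists, whose counts are read against the shares over all genes (36.5% rose, 36.2% fell, median log2 fold change 0.02). p53 targets moved mostly upwards: of 30 genes tested, 24 rose and 5 fell, 7 rose at least 2-fold, and the median log2 fold change was 0.62. CDKN1A, which encodes the cell cycle inhibitor p21, had 908, 941 and 1003 CPM in siNT and 1408, 1616 and 1873 CPM in siSF3B1, a change of 0.78 (SE 0.06, edgeR adjusted p = 6.60e-17). MDM2, the ubiquitin ligase that degrades p53, had 241, 250 and 264 CPM against 428, 475 and 569 CPM, a change of 0.96 (SE 0.05). The groups were apart for both genes. MDM2 also carried 5 called splicing events of 7 tested.

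Further up the same list stood GDF15, a secreted stress cytokine, with 39.8, 45.9 and 47.6 CPM in siNT and 111, 158 and 211 CPM in siSF3B1 (log2 fold change 1.85, SE 0.12). BAX, which permeabilises mitochondria in apoptosis, and GADD45A, a DNA damage response gene, each rose by 1.16 (SE 0.13 and 0.06). Against the direction of the list, TP53I3 fell by 0.74 (SE 0.10), the DNA repair gene DDB2 by 0.49 (SE 0.09) and XPC by 0.47 (SE 0.05) on the log2 scale. MDM4, the partner of MDM2 in restraining p53, had 17.9, 20.9 and 26.4 CPM in siNT and 24.9, 25.9 and 27.4 CPM in siSF3B1; the groups overlapped, and the log2 fold change was 0.31 (SE 0.06, edgeR adjusted p = 1.02e-05). No event of MDM4 passed the filters for testing, so its splicing was not assessed.

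The BCL2 family split. Among 16 genes tested, 6 rose and 4 fell, with a median of 0.07. Besides BAX, the pro-apoptotic BBC3 (PUMA) rose by 1.03 (SE 0.13) and the anti-apoptotic BCL2L1 by 1.04 (SE 0.10) on the log2 scale, the latter from 79.5, 82.4 and 87.4 CPM to 123, 170 and 220 CPM. Anti-apoptotic BCL2L2 fell by 1.06 (SE 0.07), and BCL2L11 (BIM) by 0.80 (SE 0.14). MCL1, a short-lived survival factor, had 346, 367 and 376 CPM in siNT and 256, 294 and 341 CPM in siSF3B1; the groups did not overlap, and it fell by 0.29 on the log2 scale (SE 0.06, edgeR adjusted p = 3.07e-05). Its fall was 0.46 with siSF3B1-13 and 0.14 with siSF3B1-16.

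Proliferation genes moved downwards. Of 21 mitosis genes tested (of 44 listed), 17 fell, 11 of them at least 2-fold, and 2 rose, with a median log2 fold change of -1.19. After TOP2A and KIF20A came CDC20, the activator of the anaphase-promoting complex, with 10.7, 12.1 and 14.4 CPM in siNT and 1.47, 3.21 and 5.35 CPM in siSF3B1 (-1.85, SE 0.21), while the checkpoint gene BUB3 rose by 0.47 (SE 0.05) and INCENP by 0.22 (SE 0.06). The median over the list depended on the siRNA: -1.48 with siSF3B1-13 and -0.57 with siSF3B1-16. Within libraries, the list's median relative to the siNT mean lay from -1.63 to -1.38 for siSF3B1-13 and from -0.69 to -0.57 for siSF3B1-16. In siNT it lay from -0.15 to 0.21, so the 3 ranges were separate. SF3B1 itself had 30.4 to 32.8 CPM with siSF3B1-13 and 33.1 to 35.2 CPM with siSF3B1-16. The part of this in the list's medians was not tested.

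DNA replication genes showed a smaller shift, with 20 of 31 tested genes (of 47 listed) falling, 5 rising and a median of -0.40. The thymidine kinase TK1 fell by 1.26 (SE 0.20), the helicase subunit MCM7 by 1.17 (SE 0.07) and the ribonucleotide reductase subunit RRM2 by 1.15 (SE 0.16) on the log2 scale, while RPA2, which coats single-stranded DNA, rose by 0.83 (SE 0.05) and the origin-binding ORC4 (listed as ORC4L) by 0.67 (SE 0.07). Of 13 homologous recombination and Fanconi genes tested (of 30 listed), 5 fell and 2 rose, led by FANCI at -1.16 (SE 0.09). MYC was not called, with 27.1, 28.5 and 30.4 CPM in siNT and 26.2, 31.4 and 41.1 CPM in siSF3B1 (log2 fold change 0.20, SE 0.10, edgeR adjusted p = 0.0669), and its sign differed between the siRNAs. With siSF3B1-13 alone MYC was called (0.46, edgeR adjusted p = 4.68e-04), with siSF3B1-16 alone it was not (-0.11, edgeR adjusted p = 0.389), and it was also called without the libraries numbered 4 (0.19). CCND1, which encodes cyclin D1, rose by 0.25 (SE 0.09, edgeR adjusted p = 0.0124) with overlapping groups, and with siSF3B1-16 alone its change of 0.12 was not called.

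Cohesin and the anaphase-promoting complex, which hold sister chromatids together and release them, did not move as a group: 9 of 26 genes fell, 4 rose and the median was -0.11. Single members did. CDC16, a scaffold subunit of the anaphase-promoting complex, went from 81.4, 85.5 and 88.8 CPM to 21.1, 25 and 29.5 CPM, a log2 fold change of -1.77 (SE 0.06, edgeR adjusted p = 9.63e-28), and both of its tested splicing events were called. CDC27, another scaffold subunit, went from 73.2, 77.7 and 92.3 CPM to 54.1, 62.1 and 67.8 CPM (-0.38, SE 0.09, edgeR adjusted p = 1.66e-04). CDC27 has near-identical copies elsewhere in the genome, so its counts are uncertain.

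CDCA5 (sororin), which protects cohesin, had 8917 counts over the 48 libraries and so fell short of the minimum of 10000. It had 185 to 279 counts per library in siNT and 95 to 194 in siSF3B1, and under the alternative filter of at least 5 counts in each library its log2 fold change was -0.67 (SE 0.13, edgeR adjusted p = 7.70e-06). No event of CDCA5 passed the filters for testing.

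Cholesterol synthesis was the most uniform list. Of 22 genes tested, 20 fell, 7 of them at least 2-fold, none rose, and the median log2 fold change was -0.78. TM7SF2, a sterol reductase, had 23.3, 28 and 35.8 CPM in siNT and 5.09, 6.78 and 9.64 CPM in siSF3B1 (-2.06, SE 0.14). MVD, of the mevalonate pathway, had 85.5, 97.8 and 113 CPM against 24.5, 33.4 and 38.7 CPM (-1.63, SE 0.18), and FDPS, which makes farnesyl diphosphate, 163, 182 and 197 CPM against 56.8, 71.0 and 83.5 CPM (-1.37, SE 0.07). None of these 3 genes overlapped between groups. The list's median was -1.11 with siSF3B1-13 and -0.58 with siSF3B1-16, and 4 of the 14 members with a tested event carried a called one.

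Among genes of stress responses, heat shock chaperones had 12 of 15 genes rising and none falling, with a median of 0.33; HSPH1 rose by 0.83 (SE 0.07), HSPA4 by 0.54 (SE 0.03) and HSPA1A by 0.51 (SE 0.12). The last of these has a near-identical neighbour and is uncertain. The list of ER stress and ATF4 targets had 15 of 30 genes rising and 5 falling (median 0.24), and its ends lay far apart. The amino acid transporter subunit SLC3A2 rose by 1.09 (SE 0.10) and the transcription factors ATF3 by 1.07 (SE 0.06) and CEBPB by 0.96 (SE 0.09). Enzymes and a transporter that supply amino acids fell: ASNS, asparagine synthetase, from 145, 158 and 171 CPM to 40.6, 44.7 and 49.4 CPM (-1.83, SE 0.16), PHGDH, the first enzyme of serine synthesis, by 0.95 (SE 0.15), and the cystine transporter SLC7A11 by 0.88 (SE 0.16).

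Inflammatory lists had medians slightly below 0. Of 23 interferon-stimulated genes tested (of 43 listed), 10 fell and 3 rose (median -0.15). After OAS3 the largest falls were SAMD9L at -1.54 (SE 0.16) and PARP9 at -1.02 (SE 0.15), while TAP1 rose by 0.45 (SE 0.07). Of 21 cytokines and chemokines, 8 fell and 6 rose (median -0.14). CXCL12, with 12.7, 14.7 and 17.1 CPM in siNT and 5.49, 7.54 and 9.38 CPM in siSF3B1, changed by -0.99 (SE 0.11), and IL11 by 0.63 (SE 0.17). IL1A, IL1B, CXCL3 and CXCL6 were called at group means under 1 CPM. They passed the count filter only through libraries outside this comparison, yet enter the list's counts and median. In the NF-kB list 7 of 17 genes fell and 6 rose (median -0.06), with RELB at -1.29 (SE 0.16), the feedback inhibitor TNFAIP3 at -0.78 (SE 0.10) and RELA at 0.53 (SE 0.06). ERK feedback and immediate early genes, which report on the pathway downstream of RAS, had 12 of 24 rising and 2 falling (median 0.22, with 0.31 for siSF3B1-13 and 0.07 for siSF3B1-16): FOSL1 rose by 0.94 (SE 0.10) and DUSP6 by 0.74 (SE 0.05), while EGR3 fell by 1.64 (SE 0.13) and EGR1 by 0.83 (SE 0.09).

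Fibroblast functions changed in part. Collagens had 13 of 21 genes falling and 2 rising (median -0.33), with COL13A1 from 59.2, 67.3 and 68.9 CPM to 14.4, 17.4 and 19.6 CPM (-1.94, SE 0.14), COL14A1 at -1.21 (SE 0.09) and, in the other direction, COL4A1 at 0.41 (SE 0.07). Contractile genes had 11 of 26 rising and 5 falling (median 0.08). The actin crosslinker FLNA, with 3444, 3671 and 3840 CPM in siNT and 2111, 2178 and 2221 CPM in siSF3B1, changed by -0.75 (SE 0.04), the myosin kinase MYLK by -0.96 (SE 0.08) and the connective tissue growth factor gene CTGF (CCN2) by 0.95 (SE 0.06). Of 23 matrix proteases and inhibitors, 12 rose and 3 fell (median 0.22); PLAUR, the urokinase receptor, rose by 1.17 (SE 0.10) and MMP11 fell by 1.12 (SE 0.21).

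For SF3B1's own complex and its neighbours, 25 genes were tested, of which 14 rose and 10 fell (median 0.14). Apart from SF3B1, which was not on this list, the largest fall was in DDX42, a helicase that binds SF3b before it joins the U2 snRNP, from 141, 149 and 153 CPM to 55.5, 60.3 and 62.7 CPM (-1.30, SE 0.04, edgeR adjusted p = 1.08e-31). The largest rise was in DDX46, the human homologue of Prp5, which acts at the same step, from 56.5, 61.3 and 65.0 CPM to 129, 151 and 172 CPM (1.30, SE 0.06). U2SURP (listed as SR140) fell by 0.82 (SE 0.09), and the U2 snRNP subunits SNRPA1 and SNRPB2 moved apart, with -0.37 (SE 0.06) and 0.68 (SE 0.05).

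Among splicing regulators outside the complex, SR proteins and hnRNP proteins had more genes rising than falling. Of 16 SR proteins, which help define exons, 12 rose and 1 fell (median 0.25), with SRRM1 at 0.89 (SE 0.06), SRSF3 (listed as SFRS3) at 0.61 (SE 0.05), SRSF1 at 0.55 (SE 0.03) and SRSF5 at -0.43 (SE 0.04). Of 25 hnRNP proteins, 15 rose and 8 fell (median 0.15); PTBP2, the neuronal paralogue of PTBP1, rose from 15.5, 17.2 and 18.3 CPM to 35.5, 39.5 and 42.8 CPM (1.21, SE 0.06), and HNRNPU and HNRNPH1 fell by 0.70 (SE 0.04) and 0.64 (SE 0.06). Of 11 splicing kinases, 4 rose and 5 fell (median 0.00), with DYRK3 at 0.82 (SE 0.10) and CLK4 at -0.71 (SE 0.07). Among 18 factors of nonsense-mediated decay, 10 rose and 6 fell (median 0.15).

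Among the large housekeeping complexes, more genes rose than fell. Of 79 cytosolic ribosomal protein genes, 24 rose and 4 fell, with 51 not called (median 0.13). The share that rose, 30.4%, was below the 36.5% over all genes. Of 72 mitochondrial ribosomal protein genes, 36 rose and 12 fell (median 0.19). Proteasome subunits (17 of 35 rose, 10 fell, median 0.19, with 0.00 for siSF3B1-13 and 0.21 for siSF3B1-16) included falls of the immunoproteasome subunits PSMB8 and PSMB10, with -1.08 (SE 0.10) and -0.84 (SE 0.16). Respiratory chain subunits (39 of 76 rose, 14 fell, median 0.24) held 1 gene that changed by over 2-fold, UQCRC2 of complex III, which went from 114, 119 and 127 CPM to 47.6, 49.7 and 53.5 CPM (-1.25, SE 0.04). Lysosomal genes (15 of 37 rose, 12 fell, median 0.12) and NuRD subunits (5 of 14 rose, 7 fell, median -0.13, with CHD4 at -0.73, SE 0.05) were divided.

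Aminoacyl-tRNA synthetases had 19 of 36 genes falling and 8 rising (median -0.16), with EPRS1 (listed as EPRS) at -0.86 (SE 0.09). Transcription elongation factors had 15 of 28 rising and 4 falling (median 0.14), among them the kinase CDK9 at -0.88 (SE 0.05) and its cyclin CCNT1 at 0.89 (SE 0.10), and the PAF1 complex subunit CTR9 at -1.05 (SE 0.07). Of 268 tested genes named ZNF with a number (of 475 listed), 140 rose and 57 fell (median 0.20), with ZNF263 at 1.56 (SE 0.07) and ZNF771 at -1.68 (SE 0.15).

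The medians of several other lists also differed between siSF3B1-13 and siSF3B1-16 by over 1.5 times. They were 0.78 and 0.50 for p53 targets, 0.38 and 0.21 for heat shock chaperones, 0.28 and 0.15 for ER stress and ATF4 targets, and -0.24 and -0.43 for collagens. SF3a, SF3b and U2 partners had 0.07 and 0.20, elongation factors 0.12 and 0.23, and aminoacyl-tRNA synthetases -0.23 and -0.14. Matrix proteases had 0.27 with siSF3B1-13 and about 0 with siSF3B1-16, and lysosomal genes 0.03 and about 0.

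**Figure D2:**
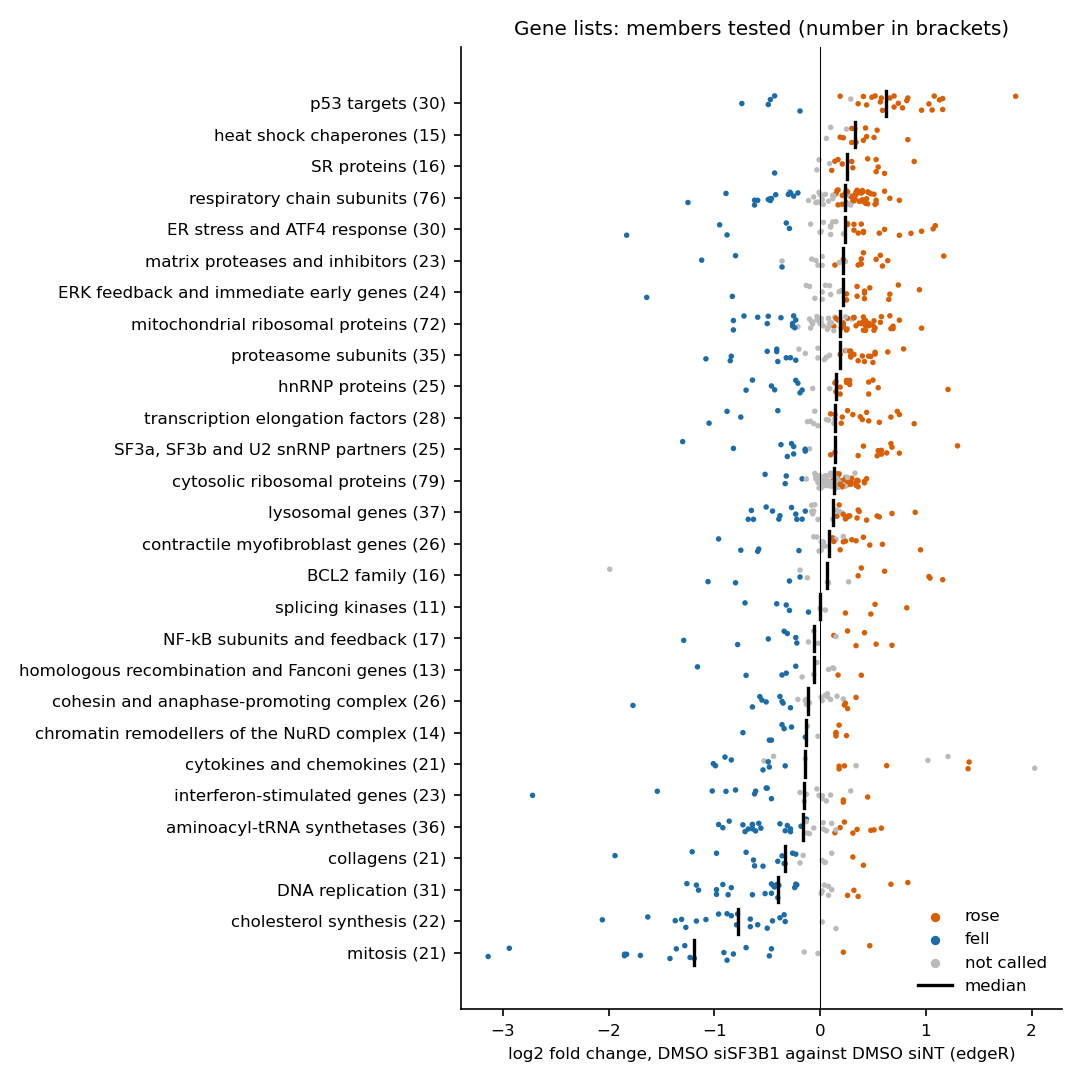
log2 fold change (DMSO siSF3B1 against DMSO siNT, edgeR) of each tested member of 28 gene lists, 1 point per gene, orange where it rose, blue where it fell and grey where it was not called, with the list's median as a black bar. p53 targets have the highest median (0.62) and mitosis genes the lowest (-1.19), and cholesterol synthesis genes lie almost wholly on the falling side.

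Splicing was measured as PSI, the per cent of transcripts that include an exon, retain an intron or use a splice site, and an event was called where limma gave an adjusted p under 0.05 and the means lay 5 points or more apart. Of 7673 cassette exons tested, 1975 were included less (25.7%) and 80 more (1.04%) after knockdown. Of 5248 introns, 566 were retained more (10.8%) and 18 less (0.343%). Only events whose PSI spanned 5 points or more over the 48 libraries were tested. This left 7673 of 24757 exons with enough coverage, and 8557 of 26089 introns before a further filter on introns. These shares, and those of genes with a called event below, are thus shares of events that varied and not of all covered events. With no minimum span, 1926 exons were called lower and 76 higher. The called exons that fell had a median difference of -10.43 points, and the called introns that rose one of 7.49 points. A change of 20 points or more was found for 362 exons and 51 introns, and one of 50 points or more for 26 exons and 3 introns.

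**Figure D3:**
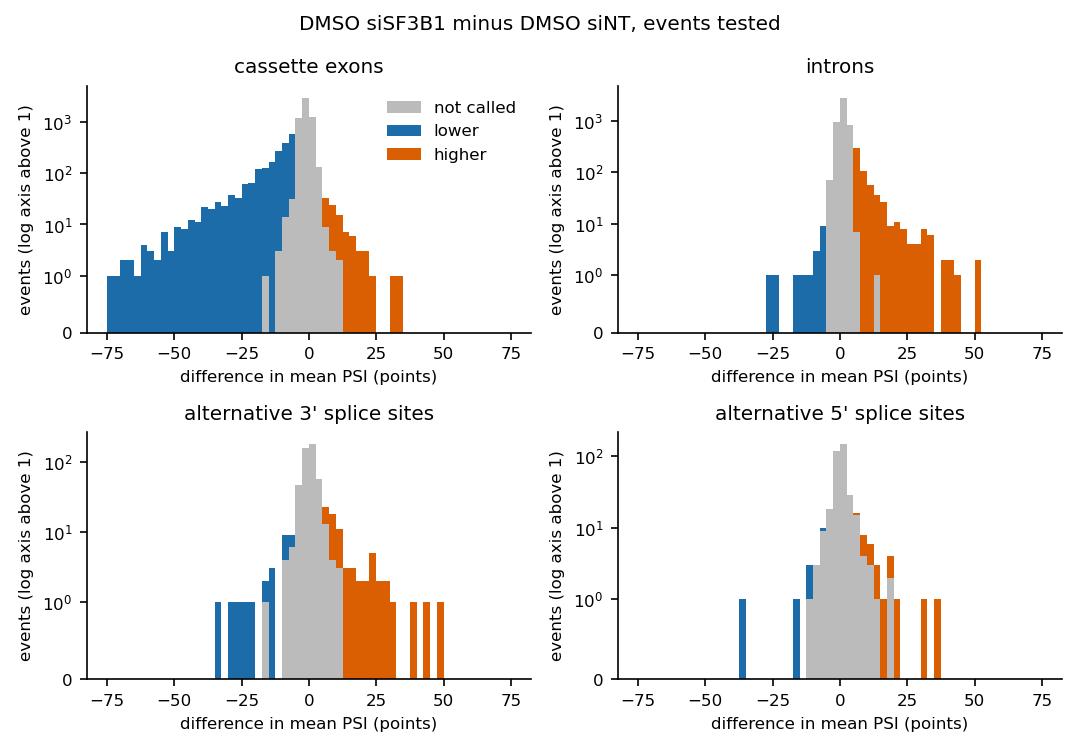
Number of tested events (vertical axis, logarithmic above 1) by difference in mean PSI, siSF3B1 minus siNT in DMSO (horizontal axis, points), for each event type, stacked by call. The called exons lie mostly to the left (1975 lower, 80 higher) and the called introns mostly to the right (566 higher, 18 lower).

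The exons with the largest loss were taken from called exons with at least a LOW coverage score in all 16 libraries, no overlap between groups and a call with each siRNA alone. For 7 of the 8 exons the position in GRCh37 could be found through the lengths of the exon and its introns. Their 3′ splice sites are shown because these are what the U2 snRNP helps to select. Each sequence gives the last 27 bases of the intron in lower case and the first 3 bases of the exon in capitals, read from the GRCh37 genome on the gene's strand.

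SNX14: tattatttcacatacctgttattgcagAGG
C1orf43: gcctaacaccagtcttttcctcaacagGTT
HERPUD1: taagtaccttcgtattacttttagcagGAA
SP100: tctaaagaatcccattcttttgtgcagTGA
POLDIP3: tggattctgaccactgagtgtttccagGTT
BECN1: catagccagttttctcttcttgggcagGAG
C12orf10: agaaggtttcccctgctgctgccttagATG

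The exon of SNX14, a sorting nexin of the endoplasmic reticulum, is 27 bases long (chr6:86248556-86248582). Its PSI was 75.2, 84.5 and 92.9% in the lowest, median and highest siNT library and 5.63, 14.6 and 19.4% in siSF3B1, a difference of -70.8 points (limma adjusted p = 3.62e-14). The exon of C1orf43 (54 bases, chr1:154186369-154186422) went from 94.0, 95.3 and 97.6% to 20.8, 26.1 and 31.9% (-69.1 points). That of HERPUD1, an ER stress protein that serves degradation at the ER membrane (72 bases, chr16:56969316-56969387), went from 97.7, 100 and 100% to 23.5, 30.7 and 38.6% (-68.8 points). For all 3 exons every knockdown library lay below every siNT library by a wide margin.

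The exon of SP100, a component of PML nuclear bodies (84 bases, chr2:231328782-231328865), fell from 94.7, 97.5 and 100% to 20.2, 30.4 and 47.4%. POLDIP3, an adaptor of mRNA export and translation (87 bases, chr22:42997976-42998062), fell from 88.0, 96.5 and 100% to 17.1, 31 and 37.5%. The 33-base exon of TRIM27, a ubiquitin ligase, whose position was not found, fell from 97.9, 100 and 100% to 26.4, 37.5 and 42.6%. C12orf10 (153 bases, chr12:53699692-53699844) fell from 94.5, 96.8 and 100% to 22.5, 38.3 and 50%. These 4 differences lay between -66.4 and -61.2 points.

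BECN1, which encodes the autophagy initiator Beclin 1, differed from the other 7 in the length of its exon. The exon (143 bases, chr17:40963673-40963815) went from 71.1, 80.0 and 85.0% to 11.1, 17.3 and 22.3% (-62.2 points, limma adjusted p = 2.18e-21). Its length is not a multiple of 3, whereas those of the other 7 exons are. The level of BECN1 also fell, from 72.0, 74.5 and 77.6 CPM to 34.1, 35.3 and 37.7 CPM (log2 fold change -1.07, SE 0.04, edgeR adjusted p = 7.59e-29). Of the other genes, SNX14 (-0.92) and C12orf10 (-0.65) fell, C1orf43 (0.51) and POLDIP3 (0.65) rose, and HERPUD1, SP100 and TRIM27 were not called (0.10, 0.10 and 0.01).

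Inclusion rose most for an exon of 477 bases in KLHL5, which went from 9.89, 23.6 and 29.2% to 46, 52.4 and 65.1% (34.6 points). The 3-base exon of CYTH2, an exchange factor for ARF GTPases, went from 29.7, 48 and 54.6% to 68.6, 79.9 and 85.6% (31.1 points). The event table also holds a CYTH2 alternative 3′ splice site 3 bases long with like values (30.4 points), so these are counted as an exon and as a site. The third was an exon of 131 bases in C1orf86 (23.9 points).

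Among introns, that of INPPL1, a lipid phosphatase of insulin signalling (228 bases, chr11:71939543-71939770), was retained at 5.97, 21.7 and 35.7% in siNT and at 66.6, 73.1 and 85.7% in siSF3B1, a difference of 52.5 points (limma adjusted p = 1.34e-12). The intron of FOXF2, a transcription factor of mesenchyme (3577 bases), went from 0, 4.47 and 9.90% to 39.6, 59.6 and 65.0% (51.4 points). Then followed DHPS, which modifies the translation factor eIF5A (79 bases, chr19:12788026-12788104), with 38.5 points, and SLC26A6, an anion exchanger (200 bases, chr3:48669478-48669677), with 33.5 points.

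The intron of MKNK2, a kinase of eIF4E (103 bases, chr19:2042662-2042764), began nearest to 0. It was retained at 0, 0.830 and 3.12% in siNT and at 25.5, 35.2 and 48.6% in siSF3B1 (33.8 points, limma adjusted p = 5.37e-19). MKNK2 was also the only gene of these 5 with a lower level (log2 fold change -0.69, SE 0.04), the other 4 having risen by 0.26 to 0.65.

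**Figure D4:**
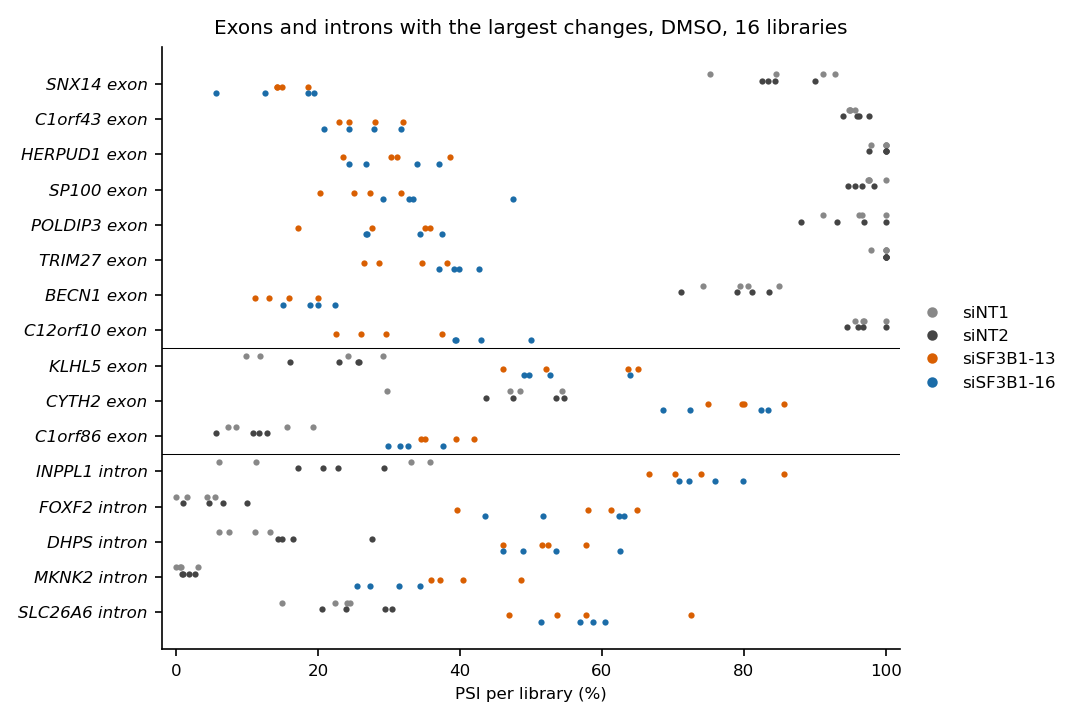
PSI (%) per library for the 8 exons with the largest fall (top), the 3 with the largest rise (middle) and the 5 introns with the largest rise (bottom), 1 point per library, coloured by siRNA. Knockdown and siNT libraries are apart for each event, and the points of both SF3B1 siRNAs lie together for most.

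Of 547 alternative 3′ splice sites tested, 55 were used more (10.1%) and 17 less (3.11%), and of 371 alternative 5′ splice sites 16 were used more (4.31%) and 5 less (1.35%). These directions depend on which site of each set was left out. With every site of a set tested, 67 alternative 3′ sites were used more and 65 less, and 18 alternative 5′ sites more and 18 less. Within the 423 sets of 2 alternative 3′ sites, the site further upstream, which gives the longer exon, was used more in 44 and less in 10. The stretch between the sites had a median of 47 bases where the upstream site gained, against 12 bases where no change was called. At 105 of the 369 sets without a call the sites were 3 bases apart, against 1 of the 44. In the 302 sets of 2 alternative 5′ sites, the site that gives the longer exon was used more in 13 and less in 3.

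The largest shift at a 3′ site was again in INPPL1, where the site that adds 82 bases went from 2.14, 5.31 and 10.7% to 45.5, 49.3 and 60.1% (44.3 points, limma adjusted p = 5.96e-10). A site of JTB that adds 151 bases rose by 38 points, from 1.31, 3.62 and 6.83% to 31, 44.7 and 49.5%. Among 5′ sites, a pair in HNRNPH1, an hnRNP protein that binds G-rich RNA, exchanged use: the site that adds 42 bases went from 7.37, 16.7 and 20.4% to 44.1, 50.7 and 62.7%, and the site that adds 12 bases from 78.5, 83.0 and 92.6% to 37.3, 49.3 and 55.2%. LUC7L3, a factor of 5′ splice site recognition, used a site that adds 53 bases at 54.4, 65.8 and 78.0% in siNT and 92.0, 96.6 and 100% in siSF3B1 (30.2 points).

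MCL1 and CDC27 carried tested events. The 752-base intron of MCL1 (chr1:150549968-150550719) was retained at 1.00, 4.44 and 9.01% in siNT and at 6.25, 8.62 and 17.2% in siSF3B1. The groups overlapped, the difference was 5.4 points (limma adjusted p = 2.87e-04), and without the libraries numbered 1 it was 3.71 points and no longer called. Of 3 tested events in CDC27, 1 was called: a 75-base exon (chr17:45201252-45201326) went from 98.6, 100 and 100% to 83.9, 88.7 and 95.2% (-10.6 points, limma adjusted p = 5.90e-09). The other exon and the intron of CDC27 differed by -0.4 and 1.9 points and were not called.

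The 2732 called events lay in 1765 of the 4391 genes with a tested event (40.2%), and 1165 of these genes carried a single called event. The largest number was 9, in KIAA0100, where 6 exons were included less and 3 introns retained more; the gene fell from 196, 208 and 211 CPM to 143, 146 and 153 CPM (log2 fold change -0.48, SE 0.04). BECN1 carried 8 (7 exons lower and 1 intron higher of 14 tested), and CAST, which encodes the calpain inhibitor calpastatin, also 8, all exons included less (-26.76 to -8.17 points), with a gene change of -0.39 (SE 0.07). GAK, a kinase of clathrin uncoating, carried 7, of which 6 were exons included less, with a gene change of -0.22 (SE 0.07). HGS, of the ESCRT-0 complex, also carried 7, but 6 of these were introns retained more, by up to 32.71 points, and its level was 107, 118 and 123 CPM in siNT and 112, 118 and 134 CPM in siSF3B1 (0.04, SE 0.07, edgeR adjusted p = 0.569). RNF10 and SLC12A4 had as many called events as GAK and HGS.

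By pathway, the share of genes with a tested event that carried a called one is read against 40.3% over all such genes past the count filter. It was 14 of 26 for lysosomal genes, 10 of 17 for contractile genes, 9 of 20 for SF3a, SF3b and U2 partners, 9 of 20 for p53 targets and 8 of 13 for ER stress and ATF4 targets. For splicing kinases it was 0 of 6, for cytosolic ribosomal proteins 2 of 10 and for factors of nonsense-mediated decay 3 of 11. Of the 21 mitosis genes that passed the count filter, 1 had an event that met the test's filters on coverage and PSI span, and it was not called.

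Whether carrying an event went with a lower gene level was then described. Among genes that passed the count filter, 585 of 1728 with a called event fell (33.9%), against 860 of 2556 with tested events but none called (33.6%) and 36.2% of all genes. The median log2 fold changes were 0.05, 0.03 and 0.02. The share that fell was 31.4% with 1 called event, 35.7% with 2, 38.2% with 3 and 51.8% with 4 or more, the last from 85 genes with a median of -0.18. Genes with an exon included less and an intron retained more fell in 72 of 159 cases (45.3%), those with only the exon in 384 of 1213 (31.7%) and those with only the intron in 102 of 276 (37%). Genes with more events were also more abundant, with a median of 54.9 CPM in siNT for no called event and 127 CPM for 4 or more, and the part of this in the shares was not tested.

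Conversely, of the 591 genes that fell at least 2-fold, 116 had a tested event and 46 a called one, and of the 167 that rose as much, 49 had a tested event and 21 a called one. These are 46 of 116 and 21 of 49, beside 40.3% over all genes with a tested event past the count filter.

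**Figure D5:**
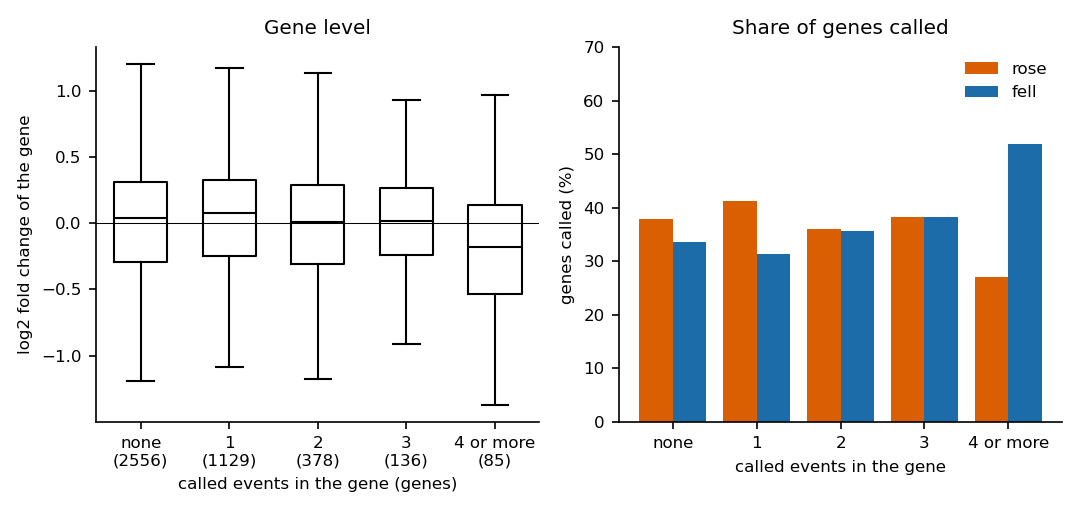
Left, log2 fold change of genes by their number of called splicing events (box, quartiles; bar, median; whiskers, the furthest values within 1.5 times the box; number of genes in brackets). Right, per cent of these genes that rose or fell. The share that fell is 33.6% without a called event and 51.8% with 4 or more.

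The exons that lost inclusion were compared with the other tested exons for features the test did not use. Their median length was 93.0 bases against 110 bases for exons not called, and the intron before them had a median of 1265 bases against 1652 bases. A length that is a multiple of 3 was found for 47.5% of them and for 40.3% of the exons not called. GC content (48.8 and 49.4%) and the pyrimidine share of the 20 intron bases before the last 3 (75% in each) had like medians. The called exons also had more reads, with a median of 98.5 per siNT library against 73.0, and the part of this in the calls was not tested.

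Introns that were retained more were short and rich in GC. Their median length was 310 bases against 902 bases for introns not called, and their median GC content was 59.6% against 49.4%. The median retention in siNT was 1.36% and 0.685%, and the median number of reads 42.3 and 40.5. The 18 introns retained less had a median length of 1167 bases and a GC content of 37.4%.

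Finally, the same knockdown was read in the 4OHT libraries, where RAS was active. Of the 758 genes changed at least 2-fold in DMSO, 722 were called in the same direction in 4OHT and 9 in the opposite direction, beside calls of 77.0% in all, 39.4% up and 37.6% down, over all genes in 4OHT (3.44% up and 8.12% down by 2-fold). Of the called events in DMSO, 1763 of 2055 exons, 499 of 584 introns, 51 of 72 alternative 3′ sites and 12 of 21 alternative 5′ sites were called the same way in 4OHT, and 1 exon was called the opposite way. Over all tested events, 4OHT gave calls for 30% of exons (29% lower, 1.04% higher), 14.9% of introns (14.7% higher, 0.210% lower), 13.5% of alternative 3′ sites (9.69% higher, 3.84% lower) and 5.93% of alternative 5′ sites (4.31% higher, 1.62% lower). The exons of SNX14 (-53.0 points) and BECN1 (-55.7 points) and the intron of INPPL1 (55.6 points) had the same sign as in DMSO.

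The size of the gene changes did differ. A direct test of the difference between the treatments called 3781 genes (37.8%), with 1988 more positive and 1793 more negative in DMSO. TOP2A changed by -3.14 in DMSO and -2.18 in 4OHT (difference -0.97, edgeR adjusted p = 0.00247), KIF20A by -2.94 and -1.11 (difference -1.83, edgeR adjusted p = 8.85e-05) and CIT by -2.62 and -1.41 (difference -1.21, edgeR adjusted p = 1.42e-05). CDKN1A rose by 0.78 in DMSO and 0.27 in 4OHT (difference 0.51, edgeR adjusted p = 1.02e-06), and MDM2 by 0.96 and 0.56 (difference 0.40, edgeR adjusted p = 1.10e-05). The mitosis list had a median of -1.19 in DMSO and -0.47 in 4OHT and the p53 targets 0.62 and 0.43, while cholesterol synthesis had -0.78 and -0.80; differences between lists' medians were not tested.

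HSPA14, AC133561.1, OVGP1, MTHFD2L, GUCA1B and DUS3L rose in 4OHT as well, by 1.49 to 4.05 on the log2 scale, and of these 6 only HSPA14 passed the test of the difference (0.38, edgeR adjusted p = 2.99e-05). ANGPTL4 rose by 1.86 in DMSO, and in 4OHT its change of 0.14 was not called (difference 1.72, edgeR adjusted p = 5.59e-06).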

How the data were processed

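RNA-seq of 48 libraries was processed by the authors with vast-tools, which named hg19 as its annotation, per the labels and methods. The deposited gene table holds raw counts and cRPKM (RPKM adjusted for mappable positions), the latter used here for cell type markers alone; a further table of normalised values was not used. The event table deposited by the authors gives PSI as a percent, with reads and a coverage score. Its coordinates lie in GRCh38, so exons (81.6%) and introns (86.7%) were found in GRCh37 (GENCODE) by gene, exon length and intron lengths, without conversion; 99.94% of the matched exons follow an AG. Groups were taken from sample titles. The members and gene lists were chosen with earlier results of these data known.

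Counts were tested with edgeR 4.0.16 (quasi-likelihood, TMM, 6 group means over 48 libraries, genes with at least 10000 counts in total), in R 4.3.3, with Benjamini-Hochberg adjustment over all 9991 genes. CPM values are scaled by TMM. Standard errors were derived from the log2 fold change and its F statistic. PSI was tested with limma 3.58.1 on the logit of 0.01 plus 0.98 times its fraction, for events scored VLOW or better everywhere whose PSI spanned 5 points or more; introns also needed a balance p of 0.05 or above; each event type was adjusted on its own and 1 site of each set of alternative sites was left out. The difference between treatments was tested with a contrast of the same edgeR fit, added after the data were seen.

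Named genes were SF3B1, CDKN1A, MDM2, MDM4, MCL1, MYC, CCND1, CDCA5 and CDC27, the 10 strongest rises and 10 strongest falls of genes called overall and with each siRNA alone without overlap between groups, and, per list, up to 3 called members with the largest rise and up to 3 with the largest fall. Named events followed the same criteria with at least a LOW score: the 8 exons with the largest fall and 3 with the largest rise, 5 introns, 3 alternative 3′ and 3 alternative 5′ sites, every tested event in MCL1, MDM4, CDCA5 and CDC27, and the 5 genes with most called events. Factors of nonsense-mediated decay are given as counts only. Of the 1423 entries of the lists, 1421 were matched by Ensembl ID or symbol; the endothelial marker PECAM1 was not matched and is not analysed here.

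In simulated counts for the DMSO comparison (9991 genes, 200 changed), edgeR recovered 60.0% of changes of 1.25-fold, 98.0% of 1.5-fold and 100.0% of 2-fold and 4-fold. In 7673 simulated exons limma recovered 95.3% of changes of 10 points and 97.7% of 20 points. In all 24 pairs of libraries sharing an siRNA and treatment the counts differed beyond sampling noise (lowest chi-square divided by its degrees of freedom 2.78), so no library was taken to be a second deposit of another. Alternatives were limma-voom, DESeq2 1.42.0, other scalings and filters, single siRNAs, a replicate block, leaving out each replicate number, and, for events, P_diff from beta distributions of the reads (500 draws per library), the plain logit and other coverage, range and size limits.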

Additional observations from a re-analysis of the deposited data

Results flagged for a closer look

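In 6 of 106 groups of 8 values a single library lay apart from the others (gap divided by range above Dixon's limit), and chance alone marks about 1 group in 20. ZC3H7A had 16.2 CPM in siSF3B1-13 replicate 1 and 18.8 to 20.9 CPM in the other knockdown libraries (ratio 0.544), and PYROXD2 had 13.7 CPM in siNT1 replicate 1 and 18.7 to 22.1 CPM in the other siNT libraries (0.595). The CYTH2 exon had a PSI of 29.7% in siNT1 replicate 4 and 43.7 to 54.6% in the others (0.563). In 3 events all other siNT libraries held the same value, so the ratio was 1.000: the TRIM27 exon (97.9% in siNT1 replicate 2, otherwise 100%), the 75-base CDC27 exon (98.6% in siNT2 replicate 2, otherwise 100%) and the CDC27 intron (1.15% in siNT1 replicate 2, otherwise 0%).

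For 17 of 27 genes tested, the change after SF3B1 knockdown differed between DMSO and 4OHT by the edgeR test of the difference, beside 37.8% of all 9991 genes. Most of the 27 were named for having the largest changes in DMSO, a choice that favours larger changes in DMSO than in 4OHT. Given as the log2 fold change in DMSO minus that in 4OHT, the positive differences were CYP26B1 1.59, ANGPTL4 1.72, FZD8 1.35, E2F7 0.98, CDC27 0.54, CDKN1A 0.51, CCND1 0.51, MDM2 0.40, HSPA14 0.38 and ZC3H7A 0.28. The value for CYP26B1 rests on DMSO levels of at most 1.15 CPM. CCND1 rose in DMSO but was lower after knockdown in 4OHT, with 2644 to 2781 CPM in siSF3B1 against 3154 to 3366 CPM in siNT. The negative ones were KIF20A -1.83, CIT -1.21, TOP2A -0.97, FABP3 -0.95, AASS -0.87, MCL1 -0.28 and MDM4 -0.26. For MCL1 the siRNAs parted in 4OHT, with 716 to 736 CPM for siSF3B1-13 and 899 to 944 CPM for siSF3B1-16. The 4OHT siNT libraries lay between, at 786 to 859 CPM. A further 5 genes from the lists were called in opposite directions in the treatments: CXCL12 with a difference of -1.81, BCL2L11 with -1.41, MMP19 with -1.39, TAP1 with 0.72 and PALB2 with 0.36. For CXCL12 the mean level in 4OHT was only 0.103 CPM in siNT and 0.180 CPM in siSF3B1, so its direction there is uncertain.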

How the results depend on the processing

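For 184 genes under the alternatives, 3061 values kept their direction and side of the threshold, 55 lost the call, 5 gained it and 1 turned; for 26 events these were 353, 3, 0 and 1. MYC (not called) turned to -0.11 with siSF3B1-16 alone, and the CDC27 intron, not called, lay between -0.02 without replicate 4 and 2.77 without replicate 2. With siSF3B1-16 alone the medians of matrix proteases (-0.000) and lysosomal genes (-0.002) fell to about 0. Genes changed at least 2-fold (758) numbered 2281 with a minimum of 1 count in total and 1231 with 5 counts in each library. Called exons (2055) numbered 328 with PSI from 1 to 99 everywhere, 1292 with LOW scores, 3946 with no minimum difference and 1075 at 10 points; in 4OHT (2305) these were 338, 1399, 4256 and 1295. Introns (584) numbered 58, 329, 2098 and 181 in the same order, and 2084 without the balance filter. Alternative 3′ sites (72) numbered 26, 44, 114 and 40, and 132 with every site of a set. Alternative 5′ sites (21) numbered 11 with no minimum range, 10 with siSF3B1-16 alone, 12 against siNT1, 8 against siNT2, 36 with every site, and 10 (without replicate 1) to 18 (without replicate 2) with a replicate left out. Genes that carried an event and fell (585) numbered 335 at 10 points and 46 at a 2-fold fall. The causes were not tested.

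Replicate numbers were not taken as pairs, since nothing in the labels ties them. The correlation within numbers was above 0.1 for numbers 1, 3 and 4 (0.216, 0.147 and 0.337) but not for number 2 (0.012). Of 16 libraries, 8 correlated best with their own number, a hint from the data only. With the number as a replicate block, 7219 genes, 758 genes at least 2-fold, 2058 exons, 583 introns, 72 alternative 3′ sites and 19 alternative 5′ sites were called, with 7648 genes and 2304 exons in 4OHT and 582 falling genes with an event.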

Other observations

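The 9 genes that changed at least 2-fold in DMSO and were called in the opposite direction in 4OHT were AMIGO2, EDNRB, FAM65B, FER1L6, GAS1, HHEX, KIAA1199, LPAR3 and RASSF2, named here after their values were seen. KIAA1199 (CEMIP), a hyaluronan-degrading protein, had 92.0 ± 10.6 CPM in siNT and 36.5 ± 12.1 CPM in siSF3B1 in DMSO, against 12.2 ± 0.772 and 36.4 ± 5.01 CPM in 4OHT (mean ± SD, n = 8). Its log2 fold changes were -1.33 and 1.58, a difference of -2.91 (edgeR adjusted p = 1.55e-17). HHEX, a homeobox transcription factor, had 13.0 ± 0.933 and 31.7 ± 1.67 CPM in DMSO and 3.02 ± 0.273 and 1.97 ± 0.338 CPM in 4OHT (mean ± SD, n = 8), with log2 fold changes of 1.29 and -0.62. EDNRB, an endothelin receptor, changed by -1.68 in DMSO and 0.63 in 4OHT, and RASSF2 by -1.12 and 0.37.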
